A study of Homo sapiens with 4 samples.

Results

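The genes of cytokine receptors, of the JAK kinases and STAT factors below them and of the proteins that switch them off were followed in Jurkat cells after 1 round of migration (ORM) through 3 μm pores. They were taken by gene symbol from a list of 47 genes, and 45 of them had a probe set, among 17687 genes with one. No probe set carried the symbols STAT2 and SH2B3, whose signals are not analysed here. CRLF2 had a pair of probe sets, and the one with the higher mean signal over the 4 arrays was used. The 45 genes were 25 receptor chains, 4 kinases, 5 STATs and 11 inhibitors.

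Jurkat is an established human line of T-cell acute lymphoblastic leukemia, and it was the only line on these arrays. ORM cells were collected below the pores after 24 h, and control cells had not migrated. Each group had 2 arrays, called biological replicates in the labels, and nothing states that they came from separate cultures, so p-values measure the spread between these samples, which may be technical. A free-text field of the labels contradicts the titles. ORM replicate 1 is called a control there and ORM replicate 2 a 3D culture, and both control arrays are given as suspension after confinement in 3D. The arrays were grouped by title and source. The sources also differ on the control cells, described in one place as a suspension culture and in another as non-migrated.

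Values are the deposited log2 signals, 1 per probe set and array. A difference of 1 on this scale is a doubling. Since probe sets bind their targets with unequal strength, signals are compared between arrays and not between genes. Array medians lay between 5.96 and 6.04, and the lower quartile of each array lay between 4.14 and 4.26. Over the whole array, the ORM arrays differed from each other with an SD of 0.248 and the control arrays with an SD of 0.404 on the log2 scale. Control replicate 2 stood apart, since ORM replicates 1 and 2 differed from it with SDs of 0.435 and 0.448. From control replicate 1 they differed with SDs of 0.292 and 0.339. All 12 T-cell markers were measured, at mean signals of 9.20 and 9.25 in ORM cells, against 9.22 and 9.34 in control cells, and none lay in the lower quartile on all arrays. CD4 was 6.37 and 6.36 in ORM cells, against 6.24 and 7.82 in control cells, so control replicate 2 was far from the others. CD3D had a log2 fold change of 0.52 and CD247 of -0.52, each with groups that did not overlap. The B-cell marker MS4A1 lay below the lower quartile on every array, while CD79A was 9.69 and 9.90 in ORM cells, against 10.06 and 10.25 in control cells. PAX5, also a B-cell marker, was 6.15 and 6.17 in ORM cells, against 6.67 in each control array. The 4 B-cell markers measured (of 6) averaged 6.25 and 6.28 in ORM cells, against 6.45 and 6.47 in control cells. Array means of the myeloid, NK and epithelial or fibroblast lists lay between 4.15 and 5.42. Below the lower quartile on all arrays were 2 of 6 myeloid, 3 of 5 NK and 2 of 8 epithelial or fibroblast markers. Others lay above the array medians, such as KRT8 at 7.48 and 7.49 in ORM cells, against 7.46 and 7.93 in control cells. COL1A2 was 7.55 and 7.44 against 7.66 and 7.71, and PRF1 was 7.32 and 7.31 against 7.32 and 7.27. The part of these markers in the results was not tested. In such bulk RNA of a single line, fewer cells with a transcript and less of it per cell cannot be told apart.

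Cytokine receptors of this kind have no enzyme activity of their own. When a cytokine joins their chains, the JAK kinases bound to the chains phosphorylate each other and the receptor, STAT proteins dock there, are phosphorylated and enter the nucleus. Many of the genes they switch on encode inhibitors, above all CISH and the SOCS proteins, which close the loop. In T cells, the receptors that share the common γ chain read interleukins of growth and survival, and activating lesions of IL7R, JAK1, JAK3 and STAT5B are known drivers of T-cell acute lymphoblastic leukemia.

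A gene was called at a fold change over 1.8, the size used in the study, together with an unadjusted p under 0.05 from limma, a linear model that shares the estimate of spread across all probe sets. None of the 45 genes was called in either direction by limma or by an equal-variance t test, where limma called 0.704% of all 21448 probe sets (0.424% higher and 0.28% lower) and the t test 0.228%. The 151 calls of limma were 91 higher and 60 lower, and 123 higher and 42 lower after centring each array on its median. At an unadjusted p under 0.05 alone there were 3 of 45 (6.67%), all with the lower signal in ORM cells, namely IL9R, IFNAR2 and IL10RA. That share lay below the 11.4% of all probe sets (5.91% higher and 5.5% lower). The 3 were among the 25 receptors, and the share of the receptors in either direction was close to that 11.4%. The split moved with the setting, with 2 higher and 5 lower by limma with trend and robust settings and 1 higher and 2 lower after median centring. The share of all probe sets was not taken under these settings, so these counts cannot be set beside 11.4%. The t test gave 3 of 45 as well (8.64% of all probe sets), IL9R lower and IFNAR1 and IL2RG higher in ORM cells. No adjusted p from limma was under 0.05, and the lowest among the 45 was 0.428. The median log2 fold change of the 45 genes was 0.04, beside -0.04 over all probe sets, with 26 above 0 and 19 below. Both ORM arrays lay above both control arrays in 9 genes (20.0%, beside 21.4% of all probe sets) and below them in 9 (20.0%, beside 24.2%), which made 18 of 45 (40.0%, beside 45.6%). At a fold change over 1.5 limma called IL10RA alone, where 4.39% of all probe sets passed. For 36 of the 45 genes the 95% interval of the difference stayed within 1.8-fold in both directions, while it reached past 1.8-fold for 7 receptors and for SOCS2 and SOCS6.

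**Figure D1:**
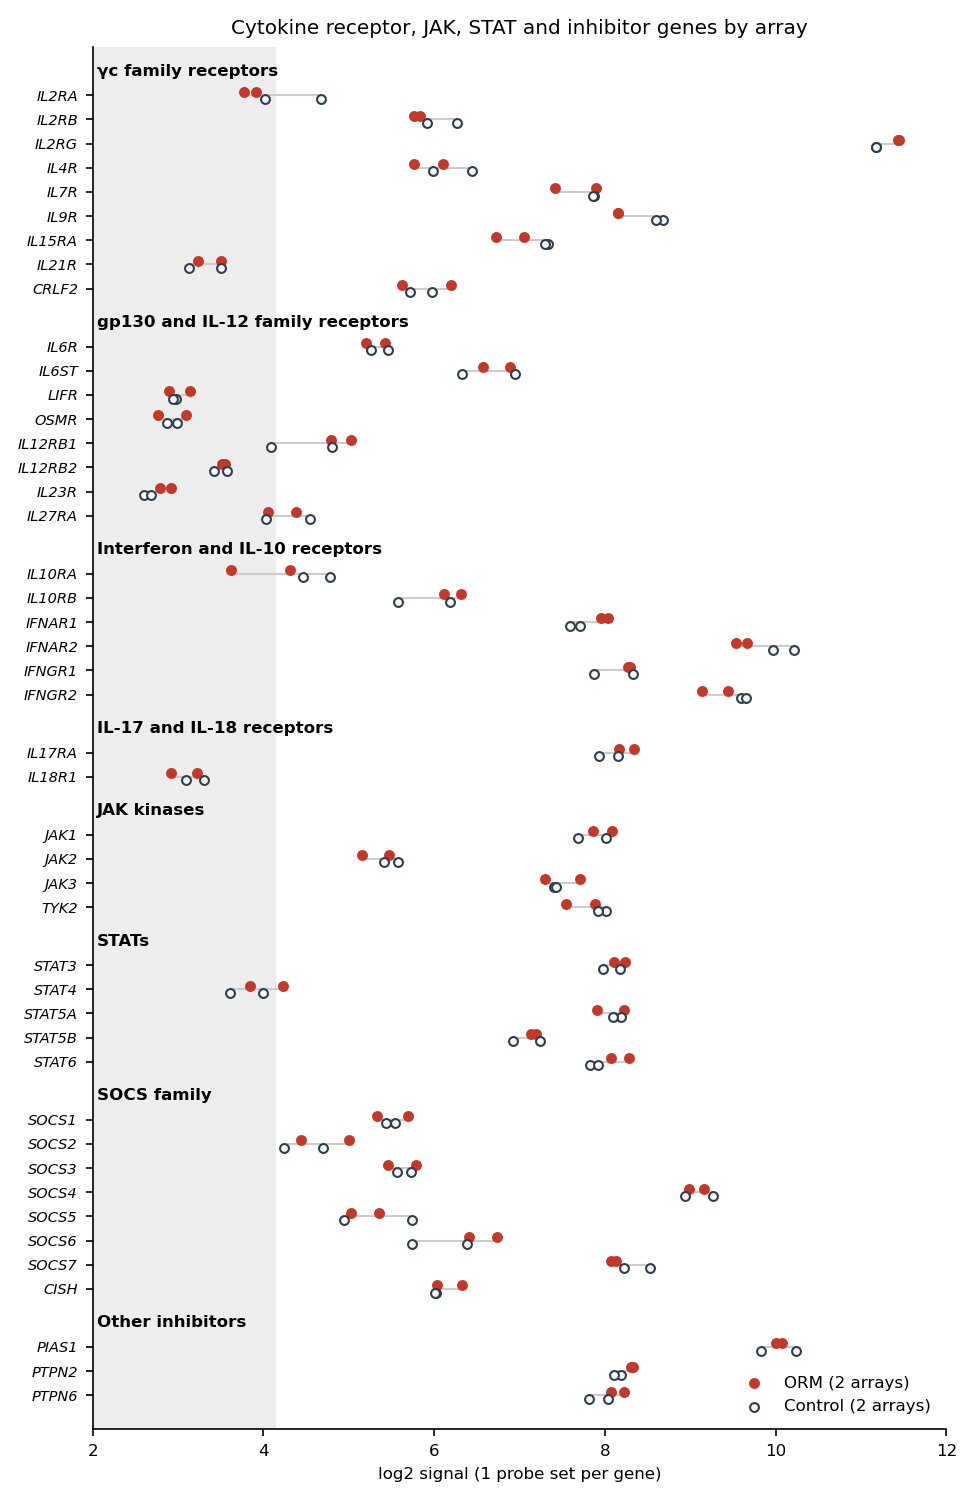
Log2 signal (x axis) of each of the 45 genes (rows) in the 2 ORM arrays (filled points) and the 2 control arrays (open points), grouped by family. The grey band ends at 4.14, the smallest lower quartile of an array. Most rows overlap, while IL9R, IFNAR2 and IFNGR2 have both ORM points to the left and IL2RG and IFNAR1 to the right of both control points.

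Among the chains of the γc family, IL9R had the lower signal in both ORM arrays, and IL2RG, the common γ chain itself, the higher. IL9R, which binds interleukin 9, was at 8.16 and 8.15 in ORM cells, against 8.68 and 8.60 in control cells. The groups did not overlap and replicates differed by less than 0.1. The log2 fold change was -0.48 (standard error 0.16, adjusted p = 0.428 from limma), short of the threshold. RefSeq lists 6 pseudogenes of IL9R, and whether the probe set also binds their transcripts is not known here. IL2RG was 11.44 and 11.43 in the ORM arrays, against 11.18 in each control array, a log2 fold change of 0.26 (standard error 0.16, adjusted p = 0.521 from limma). Replicates were nearly identical in IL2RG, and the groups did not overlap.

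Of the other chains of this family, 5 more lay below 0, and their intervals held 0. IL15RA, the high-affinity chain for interleukin 15, had 7.05 and 6.72 in ORM cells, against 7.33 and 7.30 in control cells, which gave a log2 fold change of -0.43 (standard error 0.18, unadjusted p = 0.0513 from limma). IL2RA, the inducible α chain of the interleukin 2 receptor, was dim, with 3.91 and 3.77 in ORM cells, against 4.02 and 4.67 in control cells. Its log2 fold change of -0.51 (standard error 0.24) rested largely on control replicate 2, and was -0.18 without it. IL2RB, the signalling β chain for interleukins 2 and 15, was at 5.77 and 5.84 in ORM cells, against 6.27 and 5.92 in control cells. IL4R, the chain for interleukin 4, and IL7R overlapped between the groups, with log2 fold changes of -0.28 and -0.20, and IL2RB had -0.29. IL7R, the receptor chain for interleukin 7 and, together with CRLF2, for TSLP, had 7.42 and 7.90 in ORM cells, against 7.87 and 7.86 in control cells, where ORM replicate 1 alone was low. CRLF2 and IL21R had log2 fold changes of 0.07 and 0.06, and the second probe set of CRLF2 had -0.13. The 9 chains grouped here include CRLF2, whose partner is IL7R and not the common γ chain. Of the 9, 6 lay below 0, beside 11767 of 21448 probe sets. Their median was -0.28, beside -0.04 over all probe sets.

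The receptors for type I interferon and for interleukin 10 each had one chain on either side of 0. IFNAR2, the chain of the type I interferon receptor that binds interferon tightly, was 9.54 and 9.66 in ORM cells, against 9.97 and 10.22 in control cells. IFNAR1, its partner, was 7.96 and 8.04 in ORM cells, against 7.59 and 7.71 in control cells. Both genes had groups that did not overlap, in opposite directions. The log2 fold changes were -0.50 for IFNAR2 (standard error 0.17, adjusted p = 0.428 from limma) and 0.35 for IFNAR1 (standard error 0.16, adjusted p = 0.448). IL10RA, the chain that binds interleukin 10, was 4.31 and 3.62 in ORM cells, against 4.47 and 4.78 in control cells. ORM replicate 2 was the lowest of the 4 and lay below the lower quartile of its array. The log2 fold change of -0.66 (standard error 0.26, adjusted p = 0.431 from limma) was the most negative of the 45 genes. It passed the threshold without ORM replicate 1, at -1.005, and was -0.32 without ORM replicate 2. IL10RB, the accessory chain of the receptors for interleukin 10, interleukin 22 and type III interferon, was 6.12 and 6.31 in ORM cells, against 5.58 and 6.19 in control cells, where control replicate 1 alone was low. Of the interferon γ receptor, IFNGR2 was 9.14 and 9.44 in ORM cells, against 9.59 and 9.65 in control cells, and IFNGR1 overlapped between the groups. Their log2 fold changes were -0.33 and 0.18.

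The difference between the log2 signals of paired chains was then taken within each array. Its level depends on the probe sets and has no meaning of its own, so only its change between the groups is read. For IFNAR1 minus IFNAR2 it was -1.58 and -1.62 in ORM cells, against -2.38 and -2.51 in control cells. The ratio of IFNAR1 to IFNAR2 was thus 1.796 times as high in ORM cells, a change of 0.845 on the log2 scale, where replicates differed by less than 0.2. For IL10RA minus IL10RB it was -1.81 and -2.69 in the ORM arrays, against -1.11 and -1.41 in the control arrays, a change of -0.99. For IFNGR1 minus IFNGR2 it was -0.87 and -1.14 in ORM cells, against -1.26 and -1.78 in control cells, a change of 0.52. For IL9R minus IL2RG it was -3.28 in each ORM array and -2.50 and -2.58 in the control arrays, a change of -0.74. These 4 are among 17 pairs of chains listed after the values of single genes had been seen, and they were picked after their values were seen. Of the 17 pairs, 9 did not overlap between the groups and 8 did, where 45.6% of all single probe sets did not overlap. Most of the 9 subtracted the same IL2RG signal, whose own groups did not overlap. The share over other pairs of genes was not taken, so no shift is read from the 9. Other pairs with IL2RG share its value, and IL2RA minus IL2RG at -0.76 and IL15RA minus IL2RG at -0.69 were of similar size. The rest were smaller, at -0.545 with IL2RB, -0.53 with IL4R, -0.46 with IL7R and -0.20 with IL21R, where the groups overlapped. An exact permutation test (two-sided) of 2 arrays against 2 gave p = 0.333 for each of the 4, the smallest it can give. The change was -0.55 for IL10RA minus IL10RB without ORM replicate 2, and 0.26 for IFNGR1 minus IFNGR2 without control replicate 2.

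**Figure D2:**
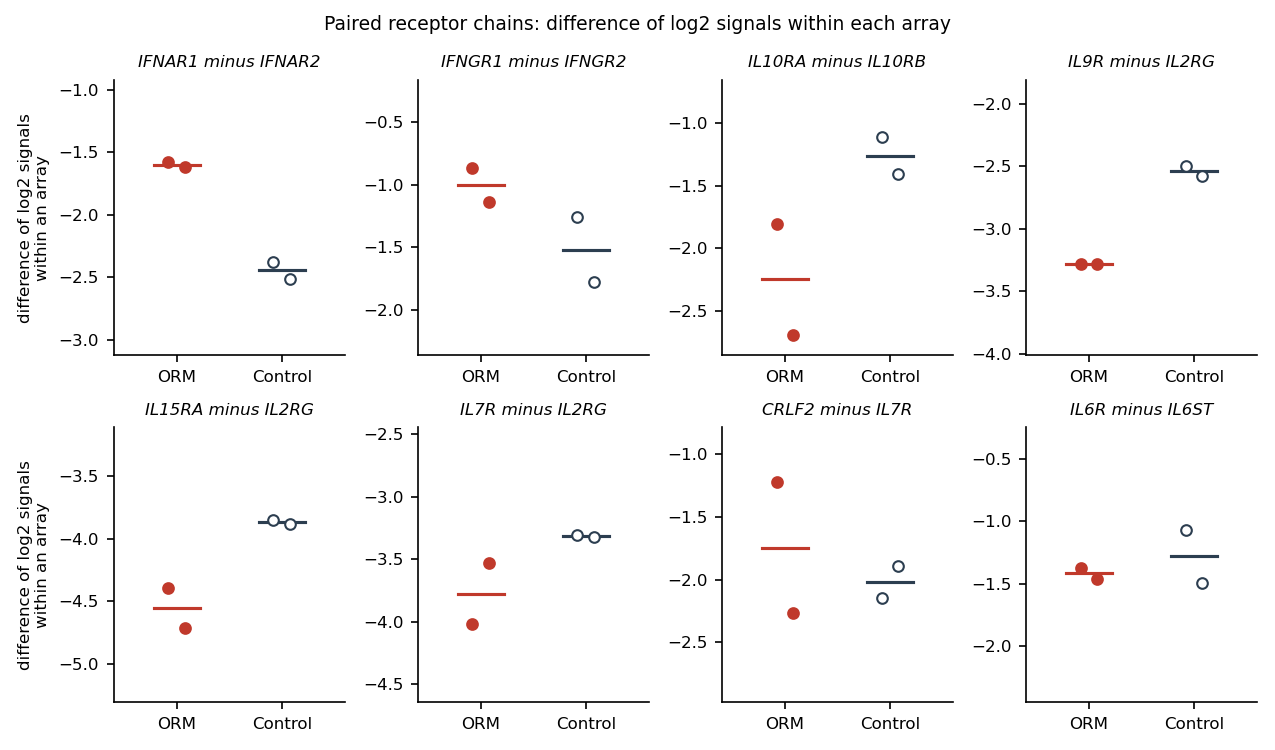
Difference between the log2 signals of paired receptor chains within an array (y axis), for ORM (filled) and control (open) arrays, 1 point per array and a line at the mean. All panels span the same height on the log2 scale. IFNAR1 minus IFNAR2 is higher in ORM arrays by 0.845 and IL9R minus IL2RG lower by 0.74, while IL6R minus IL6ST overlaps.

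The chains IFNAR2, IL10RB, IFNAR1 and IFNGR2 stand next to each other on chromosome 21 in the RefSeq annotation of GRCh38.p14, in this order and with no other protein-coding gene between. Their log2 fold changes along the chromosome were -0.50, 0.33, 0.35 and -0.33, so the neighbours did not share a direction. RefSeq also lists a read-through gene of IFNAR2 and IL10RB. Other adjacent members were IL15RA with IL2RA (-0.43 and -0.51), IL4R with IL21R (-0.28 and 0.06), IL23R with IL12RB2 (0.21 and 0.04), LIFR with OSMR (0.06 and 0.01), and STAT5B, STAT5A and STAT3 in a row (0.08, -0.07 and 0.10).

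Of the 8 receptors of the gp130 and interleukin 12 families, 4 were dim on every array. LIFR, OSMR, IL12RB2, IL23R and, outside these families, IL21R and IL18R1 lay below the lower quartile on all 4 arrays. IL6ST, which encodes gp130, the signalling chain shared by the receptors for interleukin 6, LIF and oncostatin M, was 6.57 and 6.89 in ORM cells, against 6.33 and 6.95 in control cells. IL6R, IL27RA and IL6ST overlapped between the groups, with log2 fold changes of -0.05, -0.07 and 0.09. IL12RB1, a chain shared by the receptors for interleukins 12 and 23, was 4.79 and 5.03 in ORM cells, against 4.80 and 4.09 in control cells. Its log2 fold change of 0.47 (standard error 0.26) rested on control replicate 2 and was 0.11 without it. IL17RA, which uses no JAK, was 8.34 and 8.17 in ORM cells, against 7.93 and 8.16 in control cells. Its log2 fold change was 0.21, and that of IL18R1, which also uses no JAK, was -0.13.

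**Figure D3:**
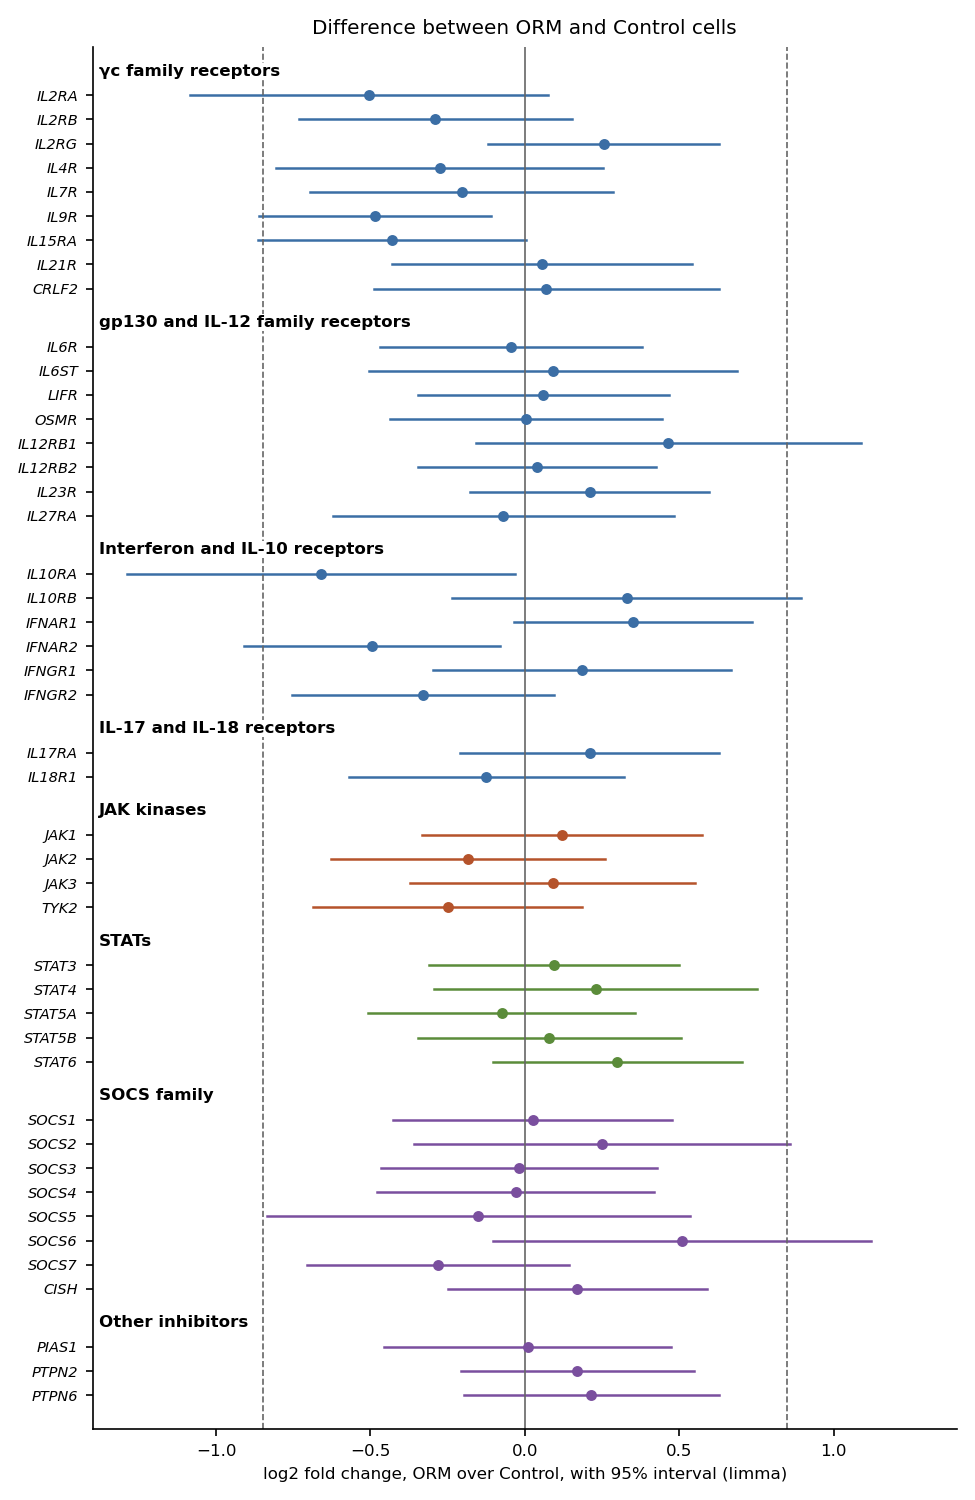
Log2 fold change of ORM over control cells (x axis) for each of the 45 genes (rows), with the 95% interval of limma. Dashed lines mark 1.8-fold in each direction. The intervals of IL9R, IFNAR2 and IL10RA exclude 0, and those of all 4 kinases and all 5 STATs lie between the dashed lines.

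None of the 4 JAK kinases passed the threshold, and none had an unadjusted p under 0.05 by limma or the t test. JAK1, which serves γc, gp130 and interferon receptors, was 8.08 and 7.86 in ORM cells, against 7.69 and 8.01 in control cells. JAK3, the partner of the common γ chain, was 7.71 and 7.30 in ORM cells, against 7.40 and 7.43 in control cells. Both overlapped, with log2 fold changes of 0.12 and 0.09 (standard error 0.19 for each). JAK2, the kinase of the receptors for erythropoietin and growth hormone and a partner of JAK1 at the interferon γ receptor, was 5.15 and 5.47 in ORM cells, against 5.41 and 5.58 in control cells. Its log2 fold change was -0.18 with a 95% interval of -0.63 to 0.26 (adjusted p = 0.686 from limma). TYK2, which acts with the receptors for type I interferon and interleukins 10 and 12, had 7.88 and 7.55 in ORM cells, against 8.01 and 7.92 in control cells. It was the one kinase whose groups did not overlap, at -0.25 with a 95% interval of -0.69 to 0.19, with -0.085 when ORM replicate 2 was left out and -0.415 when ORM replicate 1 was. The median of the kinases was -0.05, beside -0.04 over all probe sets. It lay above 0 without ORM replicate 2 (0.0725) and without control replicate 2 (0.0025), where all probe sets had -0.025 each time. After median centring the kinases had 0.005, beside 0.0175 over all probe sets.

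Of the 5 STATs measured, STAT6 alone had groups that did not overlap. STAT6, the factor of interleukins 4 and 13, was 8.07 and 8.28 in ORM cells, against 7.83 and 7.92 in control cells. The log2 fold change was 0.30 (standard error 0.17, adjusted p = 0.497 from limma), with a 95% interval of -0.10 to 0.70. STAT3, the factor of gp130 receptors, was 8.11 and 8.24 in ORM cells, against 8.18 and 7.98 in control cells. STAT5A was 8.22 and 7.91 in ORM cells, against 8.19 and 8.09 in control cells, and STAT5B was 7.14 and 7.19 against 6.93 and 7.24. STAT5A and STAT5B are close paralogs that carry the signal of the γc receptors, and their log2 fold changes were -0.07 and 0.08. STAT4, the factor of interleukin 12, was 4.23 and 3.84 in ORM cells, against 4.00 and 3.61 in control cells, near or below the lower quartiles. The log2 fold changes of STAT3 and STAT4, which overlapped between the groups, were 0.10 and 0.23. The median of the STATs was 0.10, beside -0.04 over all probe sets, and it was 0.20 without control replicate 1 and 0.035 without control replicate 2.

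Of the inhibitors, SOCS6 had the largest difference. SOCS6, a SOCS protein that targets receptor tyrosine kinases and T-cell kinases for degradation, was 6.41 and 6.74 in ORM cells, against 5.74 and 6.39 in control cells. The log2 fold change of 0.51 (standard error 0.26, adjusted p = 0.470 from limma) rested mostly on control replicate 1, as it was 0.83 without control replicate 2 and 0.19 without control replicate 1. SOCS7 was 8.07 and 8.13 in ORM cells, against 8.23 and 8.53 in control cells, the one inhibitor with both ORM arrays below both control arrays. SOCS2, a feedback inhibitor of growth hormone and STAT5 signalling, was 4.44 and 5.00 in ORM cells, against 4.70 and 4.24 in control cells. SOCS4 was 8.99 and 9.16 in ORM cells, against 8.94 and 9.27 in control cells. The groups overlapped in SOCS2 and SOCS4, and the log2 fold changes of SOCS2, SOCS4 and SOCS7 were 0.25, -0.03 and -0.28. SOCS1 and SOCS3, the main feedback inhibitors of interferon and gp130 receptors, had log2 fold changes of 0.03 and -0.02, and SOCS5 had -0.15.

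The phosphatase genes PTPN2 and PTPN6 had the higher signal in both ORM arrays. PTPN2, which dephosphorylates JAK1, JAK3 and STATs in T cells, was 8.33 and 8.31 in ORM cells, against 8.19 and 8.11 in control cells, which gave a log2 fold change of 0.17 (standard error 0.16). PTPN6, which encodes SHP-1, was 8.22 and 8.07 in ORM cells, against 8.04 and 7.82 in control cells. PIAS1, a SUMO ligase that binds STATs, was 10.01 and 10.08 in ORM cells, against 9.83 and 10.24 in control cells, with overlap and a log2 fold change of 0.01. PTPN6 had 0.21. Of the 11 inhibitors, 4 had both ORM arrays above both control arrays (36.4%, beside 21.4% of all probe sets). Both ORM arrays lay below both control arrays in 1 (9.09%, beside 24.2%). In all, 5 of the 11 did not overlap (45.5%, beside 45.6%). The median of the 11 was 0.03.

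CISH, an inhibitor of the SOCS family, is a textbook target of STAT5, and its promoter is shown because it held more matches to the STAT motif than that of any of the members with a promoter in the table. It is 300 bases of RefSeq sequence (GRCh38.p14, minus strand, chr3:50611725-50612024), from 250 bases before to 50 after the start site. Capitals mark the outer bases of each match to TTCNNNGAA, the motif of STAT dimers, which reads the same on both strands.
CISH: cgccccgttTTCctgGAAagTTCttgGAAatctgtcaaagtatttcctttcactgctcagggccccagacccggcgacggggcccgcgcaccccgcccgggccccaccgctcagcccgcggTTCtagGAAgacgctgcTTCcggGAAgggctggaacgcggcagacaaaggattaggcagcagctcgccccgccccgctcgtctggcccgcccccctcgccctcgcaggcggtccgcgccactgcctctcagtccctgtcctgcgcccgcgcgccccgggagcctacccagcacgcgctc
The 4 matches do not overlap and begin 241, 230, 129 and 112 bases before the start site. The signal of CISH was 6.04 and 6.33 in ORM cells, against 6.02 and 6.01 in control cells. ORM replicate 1 was within 0.1 of the control arrays, ORM replicate 2 was the highest, and the groups did not overlap. The log2 fold change was 0.17 with a 95% interval of -0.25 to 0.59 (adjusted p = 0.697 from limma), short of the threshold.

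The same motif was searched in the promoters of all members. The table held a promoter for 39 of the 47 genes, and 4 of these 39 (10.3%) had a match, beside 9.38% of 27305 genes. CISH was 1 of 6 genes among the 27305 with 4 or more matches in a window. The other members with a match were IL15RA, IL10RB and LIFR, shown with 10 bases on either side for the first pair of genes.
IL15RA (chr10:5978155-5978183, minus strand): gcagcaggaaTTCggcGAAgtggcggagc
IL10RB (chr21:33266368-33266396, plus strand): tctccgctggTTCccgGAAgccgccgcgg
The match of IL15RA begins 127 bases before its start site and that of IL10RB 11 bases after. A match is a description of letters and not a binding site, and their genes differed in sign, at -0.43 for IL15RA and 0.33 for IL10RB.

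The genes around this pathway were put in 4 lists, and none of them was called by limma. Of 18 other regulators, 3 had a higher and 1 a lower signal in ORM cells at an unadjusted p under 0.05 (22.2% in all, beside 11.4% of all probe sets), and 4 a higher signal by the t test (beside 8.64% in both directions). KPNA1, an importin that carries phosphorylated STATs into the nucleus, was 8.55 and 8.65 in ORM cells, against 7.91 and 8.09 in control cells, which gave a log2 fold change of 0.60 (standard error 0.17, adjusted p = 0.428 from limma). NMI, a partner protein of STATs and MYC, was 8.13 and 8.27 in ORM cells, against 7.51 and 7.73 in control cells, which gave a log2 fold change of 0.58 (standard error 0.17). In both genes the groups were apart by more than the difference between replicates. The others were STAM2, an adaptor of receptor sorting, at 0.56, and PTPRC, which encodes the JAK phosphatase CD45, at -0.44.

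Of 23 genes known as targets of STATs, 1 had an unadjusted p under 0.05 by limma (4.35%, beside 11.4% of all probe sets) and 1 by the t test (beside 8.64%), with a median of -0.15. By limma it was GATA3, the factor of type 2 helper cells, at 7.79 and 7.67 in ORM cells, against 8.17 and 8.43 in control cells, which gave a log2 fold change of -0.57 (standard error 0.17, adjusted p = 0.428 from limma). BATF, an AP-1 factor of activated lymphocytes, was next, at 7.10 and 6.89 in ORM cells, against 7.57 and 7.21 in control cells. Both ORM arrays lay below both control arrays in 10 of the 23 genes (beside 24.2% of all probe sets) and above them in 3 (beside 21.4%). The survival genes BCL2, BCL2L1 and MCL1 had log2 fold changes of 0.04, 0.28 and 0.32, and MYC had 0.12. Without control replicate 2 these were -0.02 for BCL2L1, 0.18 for MCL1 and -0.005 for MYC, and BCL2 was -0.02 without control replicate 1.

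Among 25 cytokine ligands 20 had a log2 fold change below 0, with a median of -0.18, but 12 of the 25 lay below the lower quartile on all arrays. By limma 1 of the 25 had an unadjusted p under 0.05, beside 11.4% of all probe sets, and 3 by the t test, beside 8.64%. IL12A, a subunit of interleukin 12, was 5.97 and 5.84 in ORM cells, against 6.32 and 6.36 in control cells, which gave a log2 fold change of -0.44 (standard error 0.16, adjusted p = 0.428 from limma). IL7 was at 2.67 and 2.76 in ORM cells, against 3.02 and 3.07 in control cells, below the lower quartile on every array. Of 24 other cytokine receptors, 18 lay below 0 and 1 had an unadjusted p under 0.05 by limma (4.17%, beside 11.4% of all probe sets, and 2 by the t test, beside 8.64%), with a median of -0.07 and 13 genes below the lower quartile on all arrays. IL11RA and IL17RC had the smallest p, with log2 fold changes of -0.42 (standard error 0.17) and -0.41 (standard error 0.20). Over all probe sets 11767 of 21448 lay below 0.

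**Figure D4:**
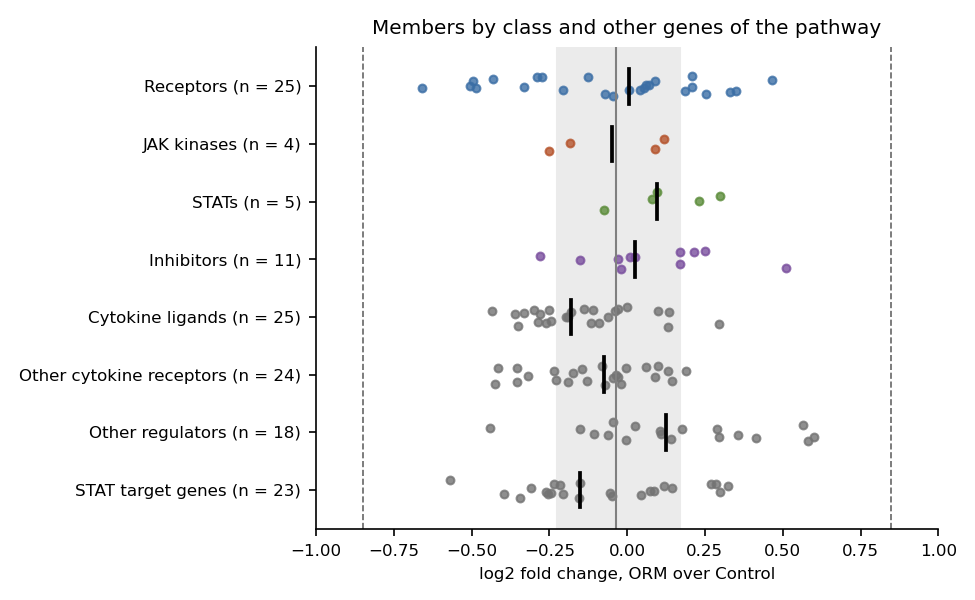
Log2 fold change of ORM over control cells (x axis) for each gene (points) of the 4 classes and of 4 lists of other genes of the pathway (rows), with a black bar at the median of each row. The grey line and band are the median (-0.04) and the quartiles (-0.23 to 0.17) of all probe sets, and dashed lines mark 1.8-fold. No point of any row lies beyond a dashed line.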

How the data were processed

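RNA of 2 ORM and 2 control samples of Jurkat cells was hybridized to human Clariom S arrays, 1 per sample. The authors deposited log2 signals per probe set. The submitters' notes name RMA and Transcriptome Analysis Console, with versions not given in the sources used here. The RNA extraction differs between the labels and the supplementary methods. The values of all 21448 probe sets were used as deposited, with no filter, and probe sets were named by the platform annotation (1 symbol for 17709 probe sets). For genes with several probe sets, the brightest on average was used. Groups were compared with limma 3.58.1 in R 4.3.3 (lmFit, eBayes) on all probe sets, with Benjamini-Hochberg adjustment over all of them. The procedure was tested on simulated data. The number of arrays limits the precision.

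The genes, lists and tests were chosen with earlier results of these data known, so no gene list was tested. Values in every array are given for members with an unadjusted p under 0.05, for the 3 with the largest absolute difference and the 2 with the highest mean signal in each class, and for the kinases. The other members with values, the pairs of chains, STAM2, PTPRC, BCL2, BCL2L1, MCL1 and MYC were picked after their values were seen. For the other lists the 2 genes with the smallest p are named. Promoters came from RefSeq (GRCh38.p14). A planned search of receptor proteins for a sequence motif was not run.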

Additional observations from a re-analysis of the deposited data

How the results depend on the processing

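The count of genes called stayed at 0 higher and 0 lower after quantile normalization and after median centring. Over all probe sets these gave 99 higher and 52 lower, and 123 higher and 42 lower. The count was also 0 under settings that could not change it, since no gene reached 1.8-fold in the main comparison. The equal-variance t test, limma with trend and robust settings and the replicate number as a block kept every fold change. Dropping genes whose signal averaged under 5 left 33 of the 45, without IL10RA. Averaging all probe sets of a gene altered CRLF2 alone. A threshold of 1.5-fold gave 0 higher and 1 lower, IL10RA. Leaving out each array in turn gave 0 to 1 lower and 0 higher, with IL10RA called without ORM replicate 1. The median of the STATs was 0.035 to 0.195 with 1 array left out, and that of all 45 genes -0.04 to 0.06. Of 18 genes that the rule for naming picked, 7 turned direction under a scaling or with an array left out, and where groups do not overlap a left-out array cannot turn it. With 1 array left out JAK1 ranged over -0.04 to 0.28, JAK3 over -0.12 to 0.30, STAT3 over -0.005 to 0.20, STAT5A over -0.23 to 0.08, SOCS2 over -0.03 to 0.53, SOCS4 over -0.20 to 0.14 and PIAS1 over -0.20 to 0.22. SOCS4 was 0.0225 with median centring, where the median of all probe sets was 0.0175, and PIAS1 was -0.0944 with quantile normalization. IL6R, IL27RA and SOCS3 also turned under a scaling. With the replicate block the median of the 45 genes was 0.04, which the block cannot change where each group holds both replicate numbers. By limma with the block, the 3 genes with an unadjusted p under 0.05 were IL9R, IFNAR2 and SOCS6. Whether arrays with the same replicate number were pairs is not known. Their deviations from the group means correlated at 0.093 across probe sets, which cannot decide it with 2 arrays per group. Over all probe sets, leaving out 1 array gave 64 to 415 higher and 36 to 594 lower, the most without control replicate 1 and the fewest without control replicate 2. For the replicate block and with an array left out, the share of all probe sets at an unadjusted p under 0.05 was not taken. IL10RA was not under 0.05 after quantile normalization or centring, by the t test, with the replicate block or without control replicate 2, ORM replicate 2 or control replicate 1, and 0 genes were under 0.05 without ORM replicate 2. The cause of these changes was not tested.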
